A study of Arabidopsis thaliana with 9 samples.

Results

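A set of 10 genes that carry nitrate into and through the plant and reduce it to ammonium were compared in seedlings of 3 Arabidopsis thaliana genotypes. They were 10 of the 32833 genes in the count table, and 7 of the 10 passed the filter on low counts that left 19149 genes for testing. The set was chosen by a measured value, the strong fall of NRT2:1 in 35S:CO against Col-0 in these same libraries. That contrast is therefore given for all 10 as a description, with no test.

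The wild type was the accession Col-0. The line 35S:CO, labelled as Col-0, carried the flowering regulator CONSTANS (CO) under the 35S promoter of a plant virus, which drives expression in nearly every tissue. The line SUC2:CO (SUC2:HA:CO) carried CO with an HA tag under the SUC2 promoter, active in phloem companion cells, in the mutant co-10, so that SUC2:CO differs from Col-0 in both the transgene and the CO allele. Each genotype had 3 libraries from seedlings grown in soil under 16 h of light and 8 h of darkness at 22 °C, with no further treatment, and collected 7 days after germination at zeitgeber time 14, which is 14 h after lights on. The labels do not say whether the 3 samples came from separate sowings, nor whether a line is 1 insertion event, so the p-values measure the spread between these samples, which may be technical. The question the design poses is what raised CO, everywhere or in the phloem, does to transcript levels.

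Library totals ran from 25563118 to 26636174 counts, so that 3 counts, taken as the smallest detectable level, corresponded to between 0.104 and 0.125 CPM (counts scaled to library size). CO itself averaged 9.19 CPM in Col-0, 636 CPM in 35S:CO and 53.2 CPM in SUC2:CO, with no overlap between genotypes. The leaf gene RBCS1A stood at 32300 to 47300 CPM. Of 22 root markers, 7 had no count in any library, among them the root hair genes EXPA7 and LRX1 and the root stem cell genes PLT1 and PLT2, and 11 never exceeded 3 counts. Among the other 11, ESB1 of the endodermal barrier had 33 to 105 counts and the potassium channel gene AKT1 had 22 to 75 counts over the 9 libraries. Summed over libraries, WOX5 had 46 counts in Col-0, 23 in 35S:CO and 3 in SUC2:CO. PIN2 had 18, 32 and 2 in that order, and RCI3 had 32, 26 and 0. Col-0 replicate 2 held no count of WOX5, PIN2 or RCI3. By the same sums ESB1 and SKOR were highest in SUC2:CO, at 238 and 77. The summed level of all 22 was 4.44 to 10.6 CPM in Col-0, 3.72 to 6.31 CPM in 35S:CO and 5.41 to 7 CPM in SUC2:CO. In bulk tissue, fewer cells of a type and less RNA per cell cannot be told apart.

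Plants take up nitrate from soil through a low-affinity and a high-affinity system. NRT2:1 is the main high-affinity transporter of the root plasma membrane and works with its partner protein NAR2.1, listed in the annotation as WR3. NRT2:2 is its neighbouring copy, and NRT2:4 acts when nitrogen is scarce. NRT1.1 is a dual-affinity transporter that also senses nitrate. NRT1.5 loads nitrate into the xylem, and NRT1.8 takes it back out. Nitrate reductase, encoded by NIA1 and NIA2, makes nitrite in the cytosol, and nitrite reductase, encoded by NIR1, makes ammonium in the plastid. NIA2 provides most of the nitrate reductase activity of the plant.

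NRT2:1 (AT1G08090, chr1:2524023-2526322, plus strand) and NRT2:2 (AT1G08100, chr1:2527170-2529120, minus strand) lie 847 bases apart and converge. Positions are those of TAIR10.1, whose sequence was used. Their coding sequences were 89.4% identical over 1569 aligned bases, with a longest identical run of 170 bases, so reads from that run cannot tell the copies apart. Read length and the handling of reads that fit both copies are not given in the sources used here. The 90 coding bases in which the copies differ most are shown because reads from there can be assigned to 1 copy, and capitals mark the 34 differing bases.
NRT2:1: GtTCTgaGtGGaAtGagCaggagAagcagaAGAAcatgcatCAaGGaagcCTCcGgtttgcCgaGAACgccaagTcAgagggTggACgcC
NRT2:2: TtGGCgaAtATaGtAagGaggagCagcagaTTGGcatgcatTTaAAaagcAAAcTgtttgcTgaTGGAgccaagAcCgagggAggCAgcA

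The promoters of this pair are shown because one gene was read in all libraries and the other was almost unread, although the sequences are alike. Each run covers 250 bases before to 50 bases after the annotated gene start, at chr1:2523773-2524072 on the plus strand and chr1:2529071-2529370 on the minus strand. Over 206 aligned pairs of bases 84% were identical, and capitals mark the 3 shared runs of at least 12 bases.
NRT2:1 promoter: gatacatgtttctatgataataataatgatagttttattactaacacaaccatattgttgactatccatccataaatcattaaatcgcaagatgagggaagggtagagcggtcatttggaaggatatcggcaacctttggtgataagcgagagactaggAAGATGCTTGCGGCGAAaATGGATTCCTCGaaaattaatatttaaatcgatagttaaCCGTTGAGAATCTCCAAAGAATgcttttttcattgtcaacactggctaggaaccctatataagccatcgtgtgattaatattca
NRT2:2 promoter: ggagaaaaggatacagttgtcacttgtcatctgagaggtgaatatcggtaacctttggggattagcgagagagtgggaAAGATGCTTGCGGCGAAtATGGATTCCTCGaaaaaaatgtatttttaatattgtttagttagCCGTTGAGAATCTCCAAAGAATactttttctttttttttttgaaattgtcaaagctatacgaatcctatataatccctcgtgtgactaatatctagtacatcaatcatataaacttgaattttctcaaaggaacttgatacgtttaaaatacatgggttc

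The nitrate reductase pair is shown in the same way, NIA1 (AT1G77760) at chr1:29239435-29239734 on the minus strand and NIA2 (AT1G37130) at chr1:14158202-14158501 on the plus strand, since these genes differed in how they varied between genotypes. Capitals mark matches, on either strand, to the TATA box core TATAA and to CCACA, the core of the element that CO binds. In NIA2 a pair of TATAA matches overlap.
NIA1 promoter: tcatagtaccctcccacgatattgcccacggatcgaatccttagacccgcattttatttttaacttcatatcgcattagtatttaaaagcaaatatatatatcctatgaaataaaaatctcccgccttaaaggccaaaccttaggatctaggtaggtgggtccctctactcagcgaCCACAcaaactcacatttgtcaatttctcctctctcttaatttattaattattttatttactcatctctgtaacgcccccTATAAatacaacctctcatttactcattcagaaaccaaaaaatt
NIA2 promoter: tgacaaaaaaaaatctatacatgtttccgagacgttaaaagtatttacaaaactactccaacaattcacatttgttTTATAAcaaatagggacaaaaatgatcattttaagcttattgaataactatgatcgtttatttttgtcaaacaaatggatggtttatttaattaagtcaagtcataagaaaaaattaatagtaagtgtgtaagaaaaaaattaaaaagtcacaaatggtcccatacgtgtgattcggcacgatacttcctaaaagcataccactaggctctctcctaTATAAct

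CCACA occurred once in the NIA1 window, at 74 bases before the gene start, and had no match in the windows of NIA2, NIR1, NRT2:1, NRT2:2, NAR2.1 or NRT1.8. It occurred once each in those of NRT2:4, NRT1.1 and NRT1.5. Of 27443 promoter windows of the same length, 33.6% held CCACA and 75.9% held TATAA. The CCAAT box, CCAAT, was found in NRT1.1 and NRT1.5 and in 51.6% of all windows. The G-box, CACGTG, and the evening element, AAAATATCT, had no match in any of the 10 windows, and 7.68% and 2.82% of all windows held them. A match of these letters is a description of the window only.

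The high-affinity uptake genes were represented almost wholly by NRT2:1 and NAR2.1. NRT2:1 had 114, 278 and 145 counts in the Col-0 libraries (4.31, 11.5 and 5.04 CPM), 76, 60 and 63 counts in SUC2:CO (2.87, 2.42 and 2.41 CPM) and 4, 9 and 1 counts in 35S:CO (0.158, 0.351 and 0.0365 CPM). The 3 genotypes did not overlap, with Col-0 the highest and 35S:CO close to the detection floor. Col-0 replicate 2 stood well above the other 2 wild-type libraries.

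The level of NRT2:1 was 6.96 ± 3.98 CPM in Col-0, 2.57 ± 0.263 CPM in SUC2:CO and 0.182 ± 0.159 CPM in 35S:CO (SD, n = 3 each). Summed over libraries, the ratio of Col-0 to 35S:CO was 37.9 (95% interval 22.4 to 69.8, from 537 and 14 counts) and that of SUC2:CO to 35S:CO was 14.4 (8.38 to 26.8). These intervals cover counting error only. The fall in 35S:CO is what chose the set and is not a finding here.

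The fitted log2 difference of NRT2:1 in SUC2:CO against Col-0 was -1.43 (SE 0.42), or 2.7-fold lower. Its Col-0 values took part in choosing the set, so this too is a description with no test. Without Col-0 replicate 2 the difference was -0.88.

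NAR2.1 (AT5G50200) had 451, 524 and 389 counts in Col-0, 352, 294 and 417 in SUC2:CO and 269, 412 and 231 in 35S:CO. Its level was 17.4 ± 4.13, 13.7 ± 2.07 and 11.7 ± 3.95 CPM in that order (SD, n = 3 each), and the libraries of all 3 genotypes overlapped. The log2 difference was -0.35 in SUC2:CO against Col-0 (SE 0.24, adjusted p = 0.29) and -0.57 in 35S:CO against Col-0 (SE 0.24). The partner of NRT2:1 was thus still present in 35S:CO at between 8.42 and 16.1 CPM.

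NRT2:2 had no count in 8 of the 9 libraries and 1 count in 35S:CO replicate 2. NRT2:4 (AT5G60770) had 1 count, in Col-0 replicate 2, and none elsewhere. Neither was detectable at this depth beyond the floor of 3 counts, and no fold is given. NRT2.3 (AT5G60780), another member of the NRT2 family, had 461, 407 and 194 counts in Col-0, 89, 140 and 17 in 35S:CO and 46, 32 and 42 in SUC2:CO. By mean level NRT2.3 was lowest in SUC2:CO, whereas NRT2:1 was lowest in 35S:CO. The NRT2.3 libraries of these lines overlapped, with a log2 difference of 1.04 in 35S:CO against SUC2:CO (SE 0.62, adjusted p = 0.27). NRT2.3 fell by 3.14 on the log2 scale in SUC2:CO (SE 0.61, adjusted p = 0.004) and by 2.1 in 35S:CO (SE 0.57, adjusted p = 0.039). The call for 35S:CO was lost in 7 of 18 alternative fits, with adjusted p between 0.06 and 0.11. Coding identity was 69.1% between NRT2.3 and NRT2:1 and 70.5% between NRT2.3 and NRT2:4.

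**Figure D1:**
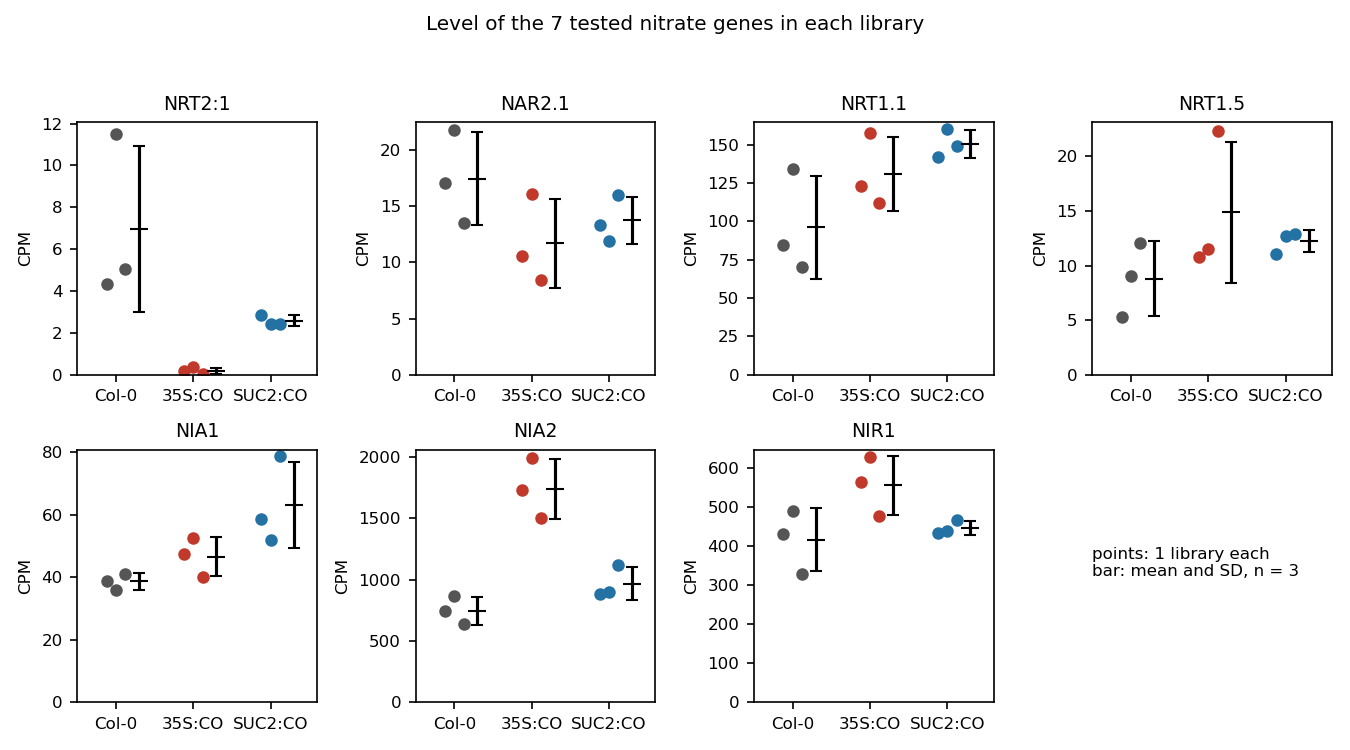
Level of the 7 nitrate genes that passed the filter, in CPM on a linear axis from 0, with 1 point per library and a bar for mean and SD (n = 3). NRT2:1 separates all 3 genotypes, NIA2 is set apart in 35S:CO at 1500 to 1990 CPM, and the NAR2.1 libraries overlap throughout.

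Among the transporters of other steps, NRT1.1 was higher in SUC2:CO than in Col-0. NRT1.1 (AT1G12110) stood at 84.4, 134 and 70.1 CPM in Col-0, 142, 160 and 149 CPM in SUC2:CO and 123, 158 and 112 CPM in 35S:CO. Every SUC2:CO library lay above every Col-0 library, while those of 35S:CO overlapped both. NRT1.1 rose by 0.64 on the log2 scale in SUC2:CO (SE 0.22, adjusted p = 0.044), and this call was lost on leaving out any SUC2:CO library, Col-0 replicate 1 or 3, or 35S:CO replicate 1 (adjusted p 0.051 to 0.14). Without Col-0 replicate 3 the difference was 0.46 (adjusted p = 0.12). The log2 difference in 35S:CO against Col-0 was 0.45 (SE 0.22).

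NRT1.5 (AT1G32450) was at 5.26 to 12.1 CPM in Col-0, 11.1 to 12.9 CPM in SUC2:CO and 10.8 to 22.3 CPM in 35S:CO. Its top value, 22.3 CPM, came from 35S:CO replicate 3, and the other 35S:CO libraries lay at 10.8 and 11.5 CPM. The log2 difference against Col-0 was 0.47 in SUC2:CO (SE 0.32, adjusted p = 0.28) and 0.76 in 35S:CO (SE 0.32). NRT1.8 (AT4G21680) had 3, 2 and 5 counts in Col-0, 0, 1 and 0 in 35S:CO and 0, 2 and 2 in SUC2:CO, too few to compare. NRT1.5 overlaps AT1G32440 and NRT1.8 overlaps AT4G21670, each on the opposite strand. The libraries kept strand, but whether the counting used it is not given in the sources used here, so the values of these genes may hold reads of their neighbours.

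Of the nitrate reductase genes, NIA2 was highest in 35S:CO, while the mean of NIA1 was highest in SUC2:CO. NIA2 had 743, 863 and 636 CPM in Col-0, 879, 897 and 1120 CPM in SUC2:CO and 1730, 1990 and 1500 CPM in 35S:CO. No library of 35S:CO came near those of the other genotypes, and the SUC2:CO libraries lay just above Col-0. The mean was 747 ± 113 CPM in Col-0, 967 ± 137 CPM in SUC2:CO and 1740 ± 247 CPM in 35S:CO (SD, n = 3 each).

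NIA2 was 2.33-fold higher in 35S:CO than in Col-0 as a fitted value (log2 1.22, SE 0.16). Against SUC2:CO it rose by 0.85 on the log2 scale in 35S:CO (SE 0.16, adjusted p = 0.0057, higher in 3 of 3 libraries), a comparison that shares its 35S:CO libraries with the one that chose the set. It passed in all 18 alternative fits. In SUC2:CO against Col-0 the difference was 0.37 (SE 0.16, adjusted p = 0.096), which passed with DESeq2 (adjusted p = 0.044) and without Col-0 replicate 2 (adjusted p = 0.039).

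NIA1, the minor isoform, had 39, 35.9 and 41.2 CPM in Col-0, 58.8, 52 and 78.7 CPM in SUC2:CO and 47.4, 52.6 and 40 CPM in 35S:CO. It was highest in SUC2:CO, where each library exceeded each of Col-0, and 35S:CO overlapped both. NIA1 rose by 0.71 on the log2 scale in SUC2:CO against Col-0 (SE 0.16, adjusted p = 0.0072), or 1.63-fold, and passed in all 18 alternative fits. Its difference in 35S:CO was 0.27 against Col-0 (SE 0.16) and -0.44 against SUC2:CO (SE 0.15, adjusted p = 0.075).

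Put on a scale per transcript length (RPKM, CPM per kilobase of the longest annotated transcript), NIA1 made up 5.06, 4.06 and 6.18% of the summed NIA1 and NIA2 level in the Col-0 libraries. The shares were 6.36, 5.56 and 6.64% in SUC2:CO and 2.71, 2.62 and 2.64% in 35S:CO. All 35S:CO shares lay below all others, and those of SUC2:CO and Col-0 overlapped. The means were 5.1 ± 1.06, 6.19 ± 0.557 and 2.66 ± 0.0458% (SD, n = 3 each). NIA2 took part in the contrast that chose the set, so these shares carry no test. The coding sequences of the isoforms were 73.8% identical, with no identical run longer than 20 bases.

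**Figure D2:**
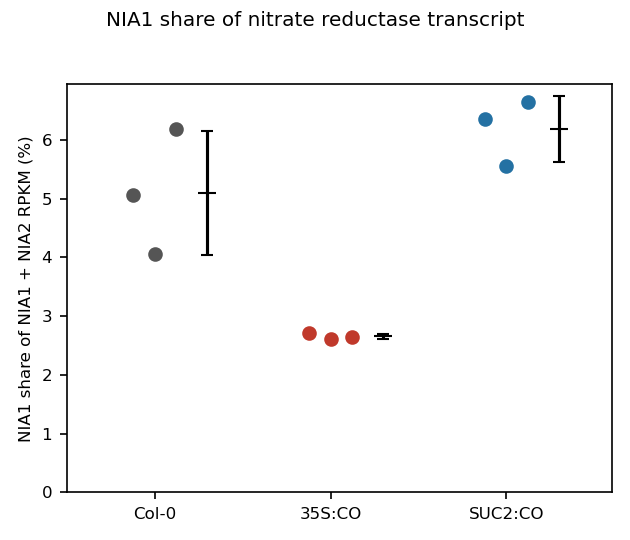
Share of NIA1 in the summed NIA1 and NIA2 level, in percent of RPKM, with 1 point per library and a bar for mean and SD (n = 3). The 35S:CO libraries lie together at 2.62 to 2.71%, below the lowest Col-0 value of 4.06%.

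NIR1 (AT2G15620) stood at 329 to 490 CPM in Col-0, 434 to 466 CPM in SUC2:CO and 476 to 627 CPM in 35S:CO. The 35S:CO libraries overlapped those of Col-0, at 476 against 490 CPM, and lay above those of SUC2:CO. The log2 difference was 0.10 in SUC2:CO against Col-0 (SE 0.15, adjusted p = 0.64), 0.41 in 35S:CO against Col-0 (SE 0.15) and 0.31 in 35S:CO against SUC2:CO (SE 0.15, adjusted p = 0.18).

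Leaving out NRT2:1, 2 of the other 6 tested genes, NIA1 and NRT1.1, rose in SUC2:CO against Col-0 and none fell, beside 32.3% of all tested genes called (15.5% higher and 16.8% lower). With 6 genes this is not set apart from the background. Without any 1 SUC2:CO library NIA1 alone passed. In 35S:CO against SUC2:CO, 1 of the 6 genes with a test changed, NIA2, beside 18.8% of all genes (9.27% higher and 9.5% lower). Between 35S:CO and Col-0 the libraries of NRT2:1, which chose the set, did not overlap. Of the other 6 genes, 1 did not overlap, NIA2, beside 29.1% of all tested genes, which does not set them apart from the background. In that contrast 11.8% of all genes were called (6.32% higher and 5.48% lower). The median log2 difference of the 7, NRT2:1 included, was 0.37 in SUC2:CO and 0.41 in 35S:CO against Col-0, and -0.19 in 35S:CO against SUC2:CO, with medians over all genes of -0.02, -0.04 and 0.01.

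**Figure D3:**
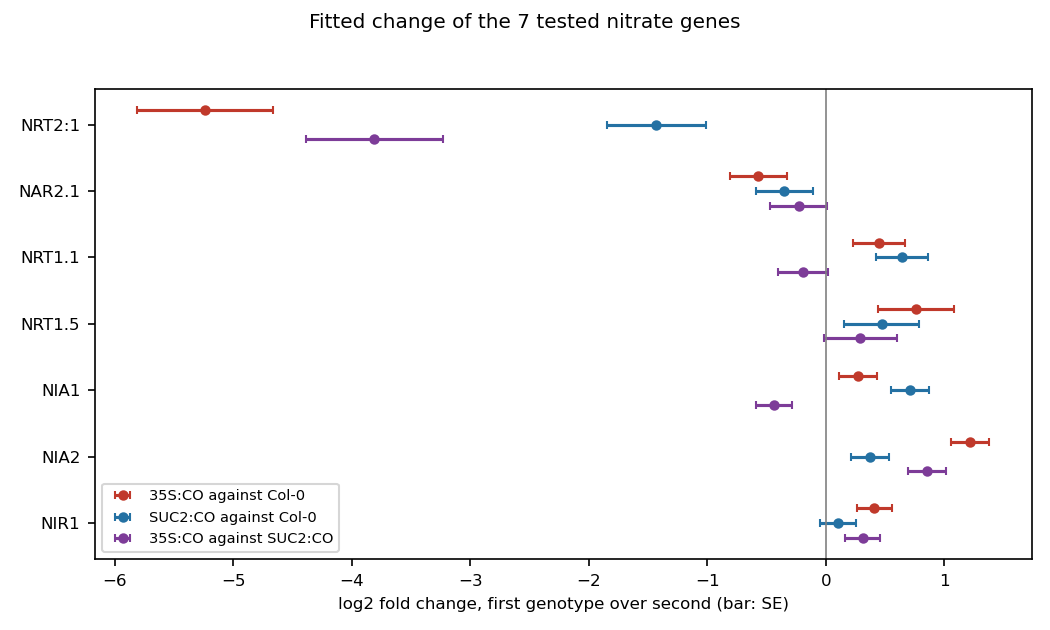
Fitted log2 fold change of the 7 nitrate genes in each pair of genotypes, first genotype over second, with bars for the SE. NRT2:1 lies left of 0 in all 3 comparisons, NIA2 right of 0 in all 3, and NIA1 right of 0 in SUC2:CO against Col-0.

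Per transcript length, the order of the levels in Col-0 was NIA2 (233 ± 35.4 RPKM), NIR1 (190 ± 37), NRT1.1 (43.7 ± 15.3), NAR2.1 (15.9 ± 3.76), NIA1 (12.3 ± 0.84), NRT1.5 (3.97 ± 1.55) and NRT2:1 (3.3 ± 1.89), as SD with n = 3. The reductases for nitrate and nitrite led, and the high-affinity transporter came last of the 7. Libraries of the neighbours NIA2 and NIR1 overlapped in range, as did those of NAR2.1 and NIA1 and those of NRT1.5 and NRT2:1. In 35S:CO NIA2, at 542 ± 76.9 RPKM, lay clear of NIR1, at 253 ± 34.6 RPKM, and NIA1, at 14.8 ± 2.02 RPKM, overlapped NAR2.1, at 10.7 ± 3.59 RPKM.

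Replicate 2 was the highest Col-0 library for 5 of the 7 tested genes and the highest 35S:CO library for 6, while in SUC2:CO replicate 3 was the highest for 5. These libraries were the highest of their genotype for 35.2, 35.5 and 32% of all tested genes.

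By correlation, which does not measure the size of a change, NRT2:1 was followed most closely by 5 genes outside the set. Across the 9 libraries, the Pearson correlation of log2 CPM with NRT2:1 was 0.978 for ET2, 0.969 for AGL87, 0.966 for ADS1, 0.963 for AT3G18900 and 0.963 for AT4G28740, the highest of 19142 genes searched. These are descriptions, since the libraries fall by genotype and 35S:CO sets much of the spread. AGL87 averaged 31.1 CPM in Col-0, 25.5 CPM in SUC2:CO and 14.1 CPM in 35S:CO. In the same order ADS1 averaged 15.9, 14.6 and 7.84 CPM, and AT4G28740 averaged 59.7, 57.6 and 42.4 CPM. These levels differed far less between genotypes than that of NRT2:1. Among the nitrate genes the correlation was 0.761 for NAR2.1, -0.851 for NIA2, -0.591 for NRT1.5, -0.559 for NIR1, -0.187 for NRT1.1 and -0.064 for NIA1.

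The wider pathway was described with 96 further genes in 4 lists, of which 95 had a row in the table and 82 passed the filter. The lists were chosen with earlier results of these data known, so their shares beside those of all genes are descriptions. In SUC2:CO against Col-0, 27 rose and 6 fell, together 40.2% beside 32.3% of all genes, with a median log2 difference of 0.12. The count was 21 without SUC2:CO replicate 3. Rises made up 32.9% of the 82 beside 15.5% of all genes. From Col-0 to 35S:CO, 10 rose and 3 fell, 15.9% beside 11.8% of all genes. Same-numbered libraries of these genotypes deviated together, and with the replicate number as a block in a fit of the 2 genotypes 21 passed. Between the transgenic lines, 10 were higher and 13 lower in 35S:CO, 28% beside 18.8%, and 14 passed without SUC2:CO replicate 3. The comparisons share libraries, so their values are set side by side only.

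Of 20 other tested nitrate and anion transporters, 9 rose and 1 fell in SUC2:CO against Col-0, 50% beside 32.3% of all genes. NRT1.9, a transporter of the root phloem, rose by 1.92 on the log2 scale (SE 0.37, adjusted p = 0.0036), from 0.453 to 1.73 CPM. NRT1.11, which moves nitrate between leaves, rose by 1.35 (SE 0.19, adjusted p = 0.00091), and NRT1.7, which exports nitrate from old leaves, by 0.91 (SE 0.14, adjusted p = 0.0012). NRT2.7, a vacuolar nitrate transporter known from seeds, rose by 0.91 as well (SE 0.17, adjusted p = 0.0029). In 35S:CO the log2 difference of NRT1.9, NRT1.11, NRT1.7 and NRT2.7 from Col-0 did not pass. For NRT1.7 it was 0.46 (adjusted p = 0.057), with every 35S:CO library above every Col-0 library. NRT1.9, NRT1.11 and NRT2.7 were lower in 35S:CO than in SUC2:CO, with differences of -1.94, -1.50 and -1.23 (adjusted p = 0.0059, 0.00065 and 0.00093). NRT1.7 was lower there too, with a difference of -0.45 (adjusted p = 0.043).

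From Col-0 to 35S:CO, 4 transporters rose and 2 fell, 30% of the 20 beside 11.8% of all genes. The count of 6 was 3 without SUC2:CO replicate 2 and 3 in a fit of the 2 genotypes alone. NPF6.4 (AT3G21670) had 54.4, 60.2 and 33.6 CPM in Col-0, 73.2, 91.6 and 82.9 CPM in SUC2:CO and 355, 376 and 270 CPM in 35S:CO. All 35S:CO libraries stood far above the rest. NPF6.4 rose by 2.76 on the log2 scale against Col-0 (SE 0.22, adjusted p = 2.4e-05) and by 2.01 against SUC2:CO (SE 0.21, adjusted p = 0.00019). AT1G72130, a major facilitator superfamily protein, rose by 1.66 and NPF6.2, a nitrate transporter of the petiole, by 1.54 (adjusted p = 4.9e-06 and 1.1e-05). NRT1:2 rose by 0.45 (adjusted p = 0.0495, lost in 7 alternative fits). AT3G45680 fell by 1.34 (adjusted p = 0.041), a call lost in 13 of 18 alternative fits, with the replicate block at 0.056 and up to 0.17 with 1 library left out. CLC-B, an anion transporter of the vacuole, stood at 1.33 CPM in 35S:CO and 0.217 CPM in SUC2:CO, a log2 difference of 2.57 (adjusted p = 0.0086). The SUC2:CO libraries held 10, 2 and 5 counts, and without SUC2:CO replicate 1 the difference was 3.23.

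Of 16 tested genes of ammonium uptake and assimilation, 9 rose and 1 fell in SUC2:CO against Col-0, 2 rose in 35S:CO against Col-0, and 4 were lower in 35S:CO than in SUC2:CO, or 62.5, 12.5 and 25% beside 32.3, 11.8 and 18.8% of all genes. The last count was 0 without 35S:CO replicate 1 or SUC2:CO replicate 3, 1 without SUC2:CO replicate 1 or 2 and 7 without Col-0 replicate 3, and the count of 2 was 1 without 35S:CO replicate 2, Col-0 replicate 1 or Col-0 replicate 3. The ammonium transporter AMT1;2 had 39.3, 37.9 and 22.4 CPM in Col-0, 87, 89.9 and 88.1 CPM in SUC2:CO and 141, 132 and 104 CPM in 35S:CO, with no overlap of the genotypes. AMT1;2 rose by 1.41 on the log2 scale in SUC2:CO and 1.92 in 35S:CO against Col-0 (adjusted p = 0.00078 and 0.00014). AMT1;1 rose in SUC2:CO by 0.95 (adjusted p = 0.017, lost without Col-0 replicate 1 or SUC2:CO replicate 3), as did the cytosolic glutamine synthetase gene GLN1;4 by 1.16 (adjusted p = 0.005) and the glutamate dehydrogenase gene GDH2 by 0.86 (adjusted p = 0.0018).

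GLN2, the plastid glutamine synthetase and the most abundant of the list, averaged 2320 CPM in Col-0, 2710 CPM in SUC2:CO and 2130 CPM in 35S:CO and passed in no comparison. Between 35S:CO and SUC2:CO it passed in 3 of 18 alternative fits, with library totals, DESeq2 and the replicate block (adjusted p 0.017 to 0.04). GLN1;2 differed by 0.47 in 35S:CO against Col-0 (adjusted p = 0.089), which passed with the replicate block (adjusted p = 0.016). GLU1, the leaf ferredoxin-dependent glutamate synthase, averaged 1680 CPM in both transgenic lines, with a log2 difference of 0.00 between them (SE 0.11, adjusted p = 0.99).

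Of 15 genes for cofactors and reducing power, 2 rose and 1 fell in SUC2:CO against Col-0, and 1 rose in 35S:CO against Col-0, or 20 and 6.67% beside 32.3 and 11.8% of all genes. The first count was 1 without Col-0 replicate 1, SUC2:CO replicate 2 or SUC2:CO replicate 3. The second was 0 without Col-0 replicate 1, 2 without Col-0 replicate 2 or 3, 3 with the replicate block, and at most 4 in any alternative fit. G6PD3, a plastid glucose-6-phosphate dehydrogenase, rose by 0.42 and 0.44 (adjusted p = 0.0083 and 0.016, the second lost without 35S:CO replicate 3 or Col-0 replicate 1). FD3, the root-type ferredoxin that supplies nitrite reductase, fell by 0.67 in SUC2:CO (adjusted p = 0.014) and differed 1.83-fold between the transgenic lines, with 35S:CO the higher (adjusted p = 0.0067). UPM1, which acts in the synthesis of the siroheme of nitrite reductase, differed by 0.22 in SUC2:CO against Col-0 (adjusted p = 0.3).

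Of 31 tested regulators, 7 rose and 3 fell in SUC2:CO against Col-0, 3 rose and 1 fell in 35S:CO against Col-0, and 4 were higher and 3 lower in 35S:CO when set against SUC2:CO. These are 32.3, 12.9 and 22.6% of the list beside 32.3, 11.8 and 18.8% of all genes. Without SUC2:CO replicate 2 or 3 the first count was 5, without Col-0 replicate 2 it was 14, and without SUC2:CO replicate 3 the last was 3. HY5, a light-signalling transcription factor, had 9.08, 7.14 and 10.3 CPM in Col-0, 5.22, 3.88 and 4.9 CPM in SUC2:CO and 2.64, 2.97 and 4.81 CPM in 35S:CO. Every library of both transgenic lines lay below every Col-0 library. HY5 fell by 1.34 on the log2 scale in 35S:CO (SE 0.24, adjusted p = 0.0057) and by 0.92 in SUC2:CO (SE 0.24, adjusted p = 0.015). The SUC2:CO call was lost without SUC2:CO replicate 2 or 3 (adjusted p = 0.068 and 0.052).

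BT1, a BTB and TAZ domain protein, had 19.1, 19.5 and 13.3 CPM in Col-0, 34.2, 38 and 37.7 CPM in SUC2:CO and 101, 103 and 56.1 CPM in 35S:CO. The genotypes did not overlap, with 35S:CO the highest and Col-0 the lowest. BT1 rose by 2.33 on the log2 scale in 35S:CO (SE 0.23, adjusted p = 0.00011) and 1.08 in SUC2:CO (SE 0.22, adjusted p = 0.0054). LBD37, known as a repressor of nitrogen-responsive genes, rose by 0.87 in 35S:CO (adjusted p = 0.0017) and by 0.39 in SUC2:CO (adjusted p = 0.039). NLP2, a relative of the nitrate-responsive factor NLP7, rose by 0.84 and 0.55 (adjusted p = 0.0027 and 0.011). AT1G06830, a glutaredoxin family protein, had 41.3, 63 and 33.4 CPM in Col-0, 11.1, 13.8 and 13.3 CPM in SUC2:CO and a mean of 36.8 CPM in 35S:CO. It fell by 1.85 in SUC2:CO against Col-0 (adjusted p = 0.00067), and the 35S:CO libraries overlapped Col-0.

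**Figure D4:**
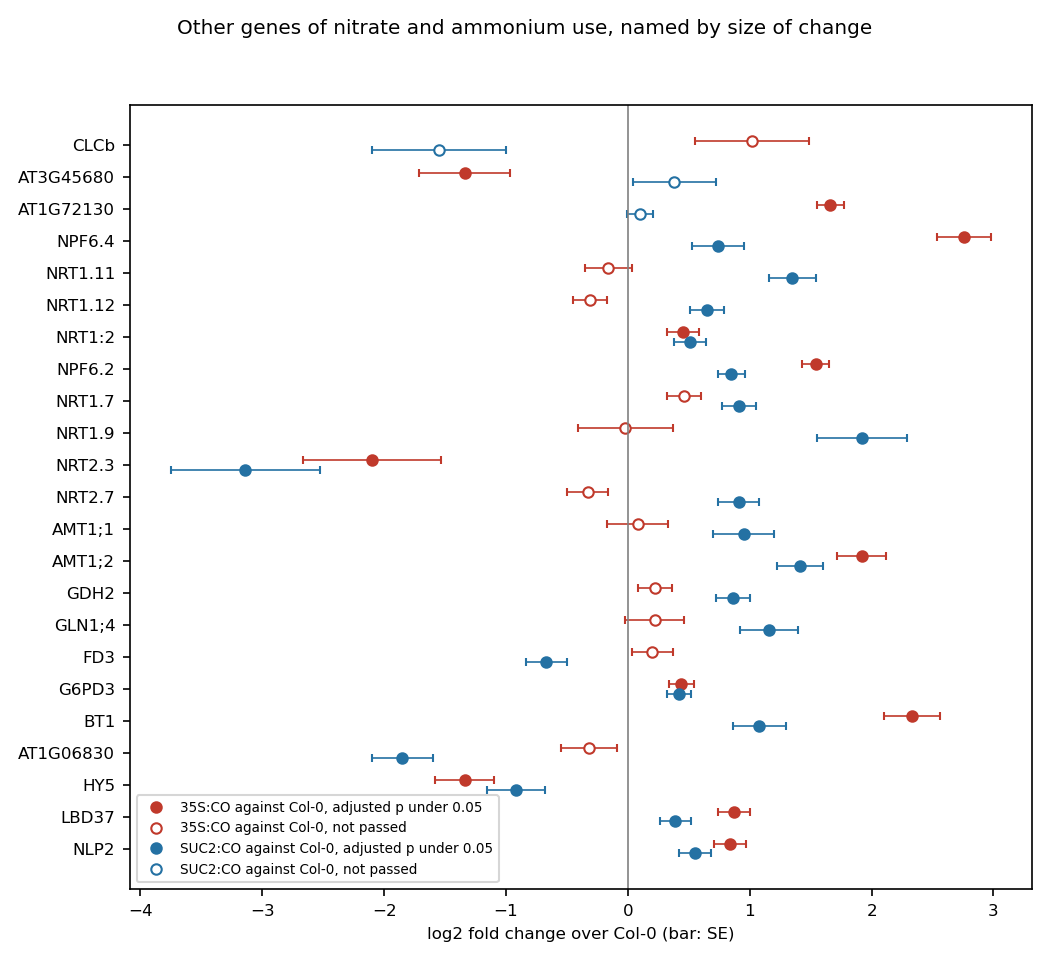
Log2 fold change against Col-0 of the pathway genes named by size of change, in 35S:CO (red) and SUC2:CO (blue), with bars for the SE and filled points for an adjusted p under 0.05. NPF6.4, BT1 and AMT1;2 lie farthest right in 35S:CO and are also raised in SUC2:CO, by 0.74, 1.08 and 1.41. NRT1.9, NRT1.11 and NRT2.7 are raised in SUC2:CO and did not pass in 35S:CO.

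Transport genes of other ions, for uptake, export or xylem loading and also active in roots, did not share one direction. Of 9 such genes 5 were tested, and 1 rose and 1 fell in SUC2:CO against Col-0, 1 rose and 2 fell in 35S:CO against Col-0, and 1 was higher and 2 lower in 35S:CO beside SUC2:CO. These are 40, 60 and 60% beside 32.3, 11.8 and 18.8% of all genes. SULTR1;2, a root sulfate transporter, named after its values were seen, fell by 0.69 from Col-0 to 35S:CO (adjusted p = 0.03) and differed by -0.92 between 35S:CO and SUC2:CO (adjusted p = 0.0057). PHT1;1 and NIP5;1 were also named after their values were seen. PHT1;1, which was not tested, had 4, 18 and 44 counts in Col-0 and summed counts of 5 in 35S:CO and 6 in SUC2:CO. NIP5;1 had summed counts of 112 in Col-0, 122 in 35S:CO and 169 in SUC2:CO and passed in no comparison. PHT1;4, a phosphate transporter, differed by -1.13 in 35S:CO against Col-0 (adjusted p = 0.0496, lost in 10 alternative fits) and by 0.17 in SUC2:CO against Col-0 (adjusted p = 0.7), and fell by 1.3 in 35S:CO against SUC2:CO (adjusted p = 0.021, lost in 4 alternative fits). BOR1, a boron exporter, averaged 52.7 CPM in Col-0, 34.1 CPM in SUC2:CO and 63.3 CPM in 35S:CO, and fell by 0.63 in SUC2:CO (adjusted p = 0.043, lost in 6 alternative fits). PHO1, which loads phosphate into the xylem, rose by 0.80 in SUC2:CO and 0.83 in 35S:CO (adjusted p = 0.017 and 0.03, lost in 2 and 6 alternative fits). Of the 5 tested root markers, 0 passed in any comparison in the edgeR fit. At an unadjusted p under 0.05 it gave 1 in SUC2:CO against Col-0, 0 in 35S:CO against Col-0 and 2 in 35S:CO against SUC2:CO. DESeq2 called 1, 0 and 2 in these comparisons after adjustment, and limma-voom 0 in each. The part of root tissue in the values of NRT2:1 was not tested.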

How the data were processed

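Groups came from the genotype label and replicate numbers from the sample titles. The deposited counts are whole reads per gene with no normalization, judged from the values. Per the submitters' processing notes the tools were FastQC, STAR, featureCounts and limma with the build TAIR10, with no versions or settings given. From the counts, edgeR 4.0.16 in R 4.3.3 fitted a quasi-likelihood model to all 9 libraries after filterByExpr (minimum count 10) and trimmed mean scaling. P-values are two-sided and adjusted by the Benjamini-Hochberg method over 19149 genes, with a threshold of 0.05. The SE is the log2 fold change over the root of its F statistic. Transcript lengths and sequences came from RefSeq's TAIR10.1 genome and annotation with Biopython 1.88. The genes and all lists were chosen with earlier results of these data known.

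Named pathway genes are, per comparison, the up to 12 with the greatest change past the threshold and the 3 with the highest CPM that did not pass. For the root lists they are the 3 with the highest CPM and those past the threshold with a log2 change of at least 1. The 5 genes most like NRT2:1 were taken by Pearson correlation. Root markers named individually were chosen after their values were seen. Deviations of same-numbered 35S:CO and Col-0 libraries from their genotype means correlated at 0.435, 0.302 and 0.248. Differently numbered libraries were not compared in this way, and the labels do not say that the numbers pair libraries. A block by replicate number was therefore an alternative fit only. The main fit did not use the numbers. It held 1 estimate of the spread per gene for all 3 genotypes. Replicate libraries differed less in SUC2:CO (chi-square per degree of freedom 8.38 to 14.2) than in Col-0 (30.9 to 32.8) or 35S:CO (18.4 to 31.7). DESeq2 1.42.0 and limma-voom 3.58.1 served as alternatives, and each fit was tested on simulated data. No replicate pair held identical values, and no sample was left out.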

Additional observations from a re-analysis of the deposited data

How the results depend on the processing

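With 1 library left out at a time, the count of all genes changed in SUC2:CO against Col-0 ran from 3572 to 6615 (6176 with all libraries). That of pathway genes ran from 21 to 37. With NRT2:1 left out, the count of nitrate genes that rose ran from 1 to 3. In 35S:CO against Col-0 the count of all genes ran from 1159 to 2167 (2261 with all), and 1260 passed in a fit of the 2 genotypes alone, 72% of them higher beside 53.6%. In 35S:CO against SUC2:CO that count ran from 1584 to 4110 (3595 with all), and that of pathway genes from 14 to 26. DESeq2 called 22 pathway genes in 35S:CO against Col-0 and the replicate block with the 2 genotypes alone 21, an alternative chosen after seeing the data, beside 13. With the replicate block in all 9 libraries it was 19. The labels name no pairing, so whether the block stands for one is not known. In the other comparisons same-numbered libraries correlated at -0.113 to 0.119, and the block gave 37 and 32 pathway genes beside 33 and 23. The cause of these shifts was not tested.

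Signs turned only for differences that did not pass, each without 1 library. With 1 library left out at a time, the log2 difference in SUC2:CO against Col-0 ran from -0.04 to 0.22 for NIR1 and from -0.08 through -0.03 to 0.52 for PHT1;4. In 35S:CO against Col-0 it ran from -0.21 to 0.00 for GLN2. In 35S:CO against SUC2:CO it ran from -0.13 to 0.51 for NRT1.5, -0.01 to 0.08 for GLU1 and -0.09 to 0.21 for PHO1. Of the other values for single genes, 1256 kept their direction and, where tested, their side of the threshold, 76 no longer passed and 11 newly passed. These tallies include NRT2:1 in SUC2:CO against Col-0, whose fits are a description with no test. Depth limits NRT2:2, NRT2:4 and NRT1.8, which stayed at 5 counts or fewer, and NRT2:1 in 35S:CO, which rests on 14 counts.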
